A study of Drosophila melanogaster with 8 samples.

Results

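Targeted DamID peaks of RNase H1 were examined at the genes of 4 chemosensory families in wing imaginal discs of *Drosophila melanogaster*. The families are the gustatory receptors (*Gr*), the odorant receptors (*Or*), the ionotropic receptors (*Ir*) and the odorant-binding proteins (*Obp*). Genes were chosen by symbol, as one of these prefixes followed by a number and a letter, in the authors' tables of genes beside a peak. This gave 72 genes of the 9826 genes with a listed peak in either genotype, namely 17 *Gr*, 16 *Or*, 24 *Ir* and 15 *Obp* genes. The symbol rule uses no measured value, but a gene enters the tables only through a peak, so the 164 annotated genes of these families without a listed peak are described as well.

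*Gr*, *Or* and *Ir* genes encode receptors of sensory neurons. *Or* proteins work with the co-receptor Orco, and *Ir* proteins are relatives of ionotropic glutamate receptors that work with co-receptors such as Ir25a, Ir8a and Ir76b. *Obp* genes encode small secreted proteins made largely by support cells of sensory hairs. In the adult these genes act in the antenna, the mouthparts, the legs and the wing margin. They were examined as genes not thought to be transcribed in the larval disc; the files hold no expression values, so their silence in these discs was not measured.

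RNase H1 recognises RNA:DNA hybrids. In Targeted DamID it is fused to the DNA adenine methylase Dam, which marks GATC sites near the DNA that the fusion contacts. Dam-RNase H1 (genotype nub>Dam-RNase H1) and Dam alone (nub>Dam) were expressed at a low level from UAS-LT3 constructs under the wing driver *nub*, in control larvae and in mutants for the heat-sensitive allele ecd1 of the gene *ecd* (genotypes nub>Dam-RNase H1; ecd1 and nub>Dam; ecd1). Every group carried heat-sensitive tub-Gal80 and was kept at 25 °C until day 6 after egg laying, then at 29 °C for 24 h. The warmer temperature released the Dam constructs and inactivated the mutant ecd1 protein in the same period, and larval (L3) discs were dissected on day 7. The *nub* driver is active in part of the disc, so the marks come from those cells, while the ecd1 allele is present in the whole animal.

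By the labels, Dam-RNase H1 was sequenced in 3 biological replicates per genotype and Dam alone in 1 library per genotype. The files hold 1 peak list per genotype (8597 control and 9559 ecd1 peaks), so no value below has a replicate error, depth is unknown, and no test over samples could be made; every comparison is a description of the lists. Peak height is the authors' score on an unstated scale, each listed peak has an FDR under 0.01, and the lists of the genotypes were made separately. The wing pouch genes *nub*, *vg*, *sd*, *rn* and *pdm2* each had a peak in both lists, with heights at *vg*, the wing selector gene, of 1.88 in control and 2.47 in ecd1. Over all annotated genes, 46.5% had a listed control and 49.1% a listed ecd1 peak. The wing pouch genes are long, with spans from 15185 to 40511 bp, against a median of 1710 bp over all annotated genes. Of these 5 genes, only *vg* was the sole gene listed for its peak in both lists. The neuronal gene *nSyb* had no listed peak, while *elav* had heights of 1.49 and 1.32 for peaks listed for 3 genes each. The glial gene *repo* had no listed control peak and an ecd1 peak of 0.55.

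In both genotypes the share of chemosensory genes with a Dam-RNase H1 peak was below that of all genes. Of 236 annotated genes of the families, 54 (22.9%) had a listed control peak, beside 46.5% of all 17684 annotated genes, and 64 (27.1%) had a listed ecd1 peak, beside 49.1%. Counted by annotated span, from the start to the end of the gene, 41 (17.4%) overlapped a control peak, beside 40.4% of all genes, and 50 (21.2%) an ecd1 peak, beside 41.9%. These genes are short, with a median span of 1489.5 bp. Among protein-coding genes with spans of at most 3000 bp, 32.5% overlapped a control and 34.8% an ecd1 peak, while 33 and 36 of the 210 chemosensory genes of that size did (15.7% and 17.1%). Unlike the protein-coding set, the 210 include the 6 annotated pseudogenes of the families. Peaks covered 5.75% of the bases of these 210 chemosensory spans in control and 6.89% in ecd1, beside 15.6% and 17.2% for the short protein-coding genes. Over all 236 chemosensory spans the shares of bases were 4.98% and 6.61%, beside 14% and 14.1% over all annotated genes.

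**Figure D1:**
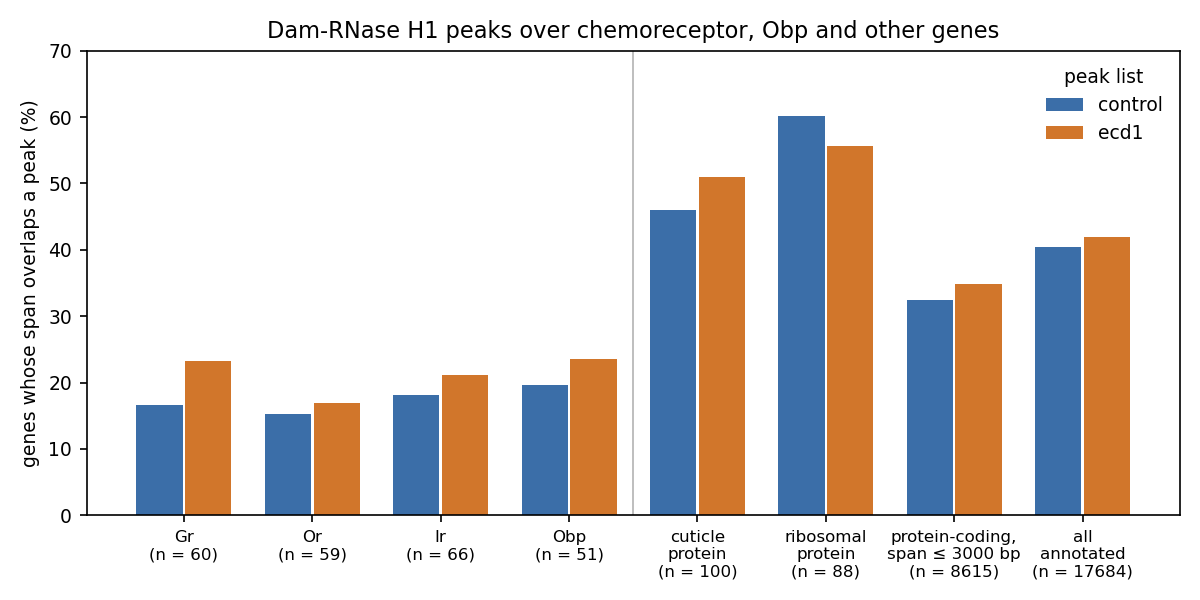
Percentage of annotated genes (y axis) whose span overlaps a control (blue) or ecd1 (orange) Dam-RNase H1 peak by at least 1 bp, for each chemosensory family and 4 other sets of genes; n is the number of annotated genes and the bars have no error because each genotype has 1 list. The 4 families lie between 15.3% and 23.5%, below the 32.5% and 34.8% of short protein-coding genes.

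Each family had a share in this range. Spans overlapping a control peak made up 16.7% of the 60 *Gr*, 15.3% of the 59 *Or*, 18.2% of the 66 *Ir* and 19.6% of the 51 *Obp* genes; for ecd1 peaks the shares were 23.3%, 16.9%, 21.2% and 23.5%. The shares of other gene groups covered a wide range. Ribosomal protein genes, which every growing cell transcribes, overlapped peaks in 60.2% (control) and 55.7% (ecd1) of 88 cases. Cuticle protein genes, another family of short genes, did so in 46% and 51% of 100 cases. The neural surface genes of the dpr, DIP and beat families, with a median span of 33176.5 bp, overlapped peaks in 23.9% and 30.4% of 46 cases, with 1.53% and 2.09% of their bases covered.

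A gene can be listed beside a peak that lies up to several kb away. Of the 54 chemosensory genes with a listed control peak, the peak overlapped the span in 31 (57.4%), beside 69.9% over all genes; for ecd1 it was 37 of 64 (57.8%), beside 69.6%. The other listed peaks lay at a median of 1426 bp (control) and 1215 bp (ecd1) from the gene and at most 4717 bp away. Peaks over the spans had the lower median height. It was 0.72 against 0.97 in control and 0.89 against 1.41 in ecd1, while over all genes both kinds had a median of 0.95 in control and 1.21 in ecd1.

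Many of these peaks were also listed for a gene outside the families, and many of all listed peaks for more than 1 gene. The 54 control genes were listed for 52 peaks, of which 28 were listed for chemosensory genes only and 24 also for another gene. In ecd1, 64 genes were listed for 57 peaks, 34 of them listed for chemosensory genes only and 23 also for another gene. Of all peaks listed for a gene, 2383 of 5025 in control and 2431 of 5454 in ecd1 were listed for 2 or more genes. This split is not the same. Exclusive peaks listed for 2 chemosensory genes, such as that of *Gr93a* and *Gr93b* in ecd1, count there among those of 2 or more genes. The exclusive peaks had the lower median height, and over all genes too the peaks listed for 1 gene had the lower median. In control their median height was 0.70 (quartiles 0.63 and 1.00), against 1.06 (0.72 and 1.26) for the shared peaks, with 0.92 over all 2642 peaks listed for 1 gene and 0.88 over the whole list. In ecd1 the medians were 0.99 (0.71 and 1.29) and 1.23 (0.84 and 1.62), with 1.13 over the 3023 peaks listed for 1 gene and 1.10 over the list. Over all peaks listed for 2 or more genes the median height was 0.97 in control and 1.23 in ecd1. Median widths were lower as well for the exclusive peaks, 1371.5 bp against 2338.5 bp in control and 1170 bp against 1480 bp in ecd1. Over all peaks listed for 1 gene, against those listed for 2 or more, they were 1597.5 bp against 1745 bp in control. In ecd1 these widths were 1376 bp against 1623 bp. Above the median of their own list stood 9 of the 28 exclusive control peaks (32.1%) and 14 of the 34 exclusive ecd1 peaks (41.2%).

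**Figure D2:**
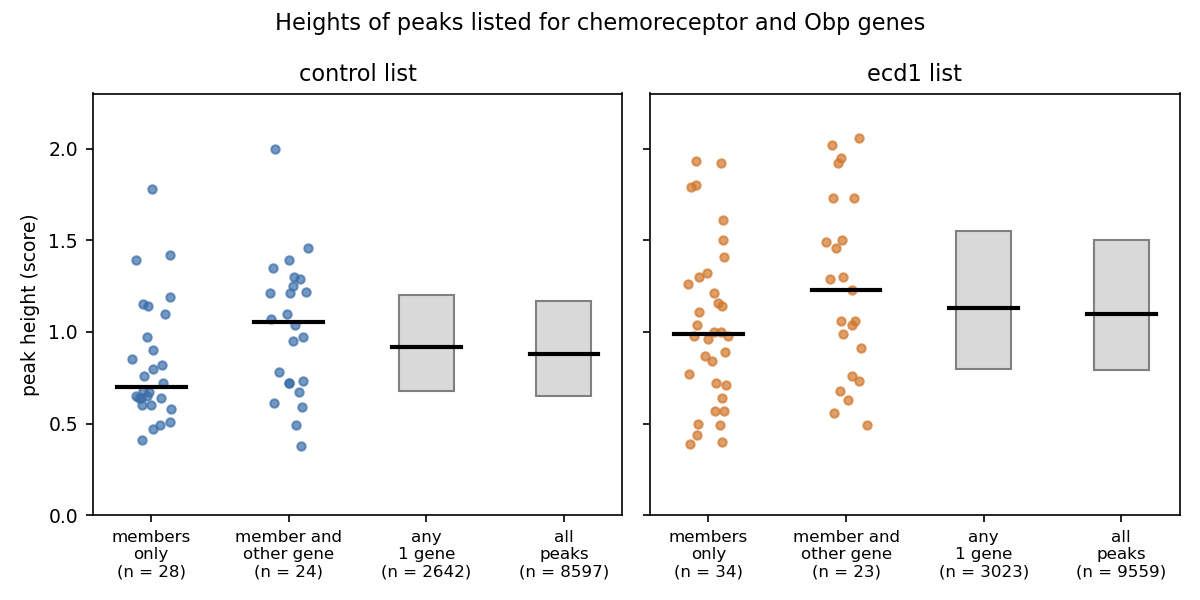
Peak height (authors' score, y axis) in the control list (left) and the ecd1 list (right). Points are single peaks listed for chemosensory genes only or also for another gene, grey boxes span the quartiles of all peaks listed for any 1 gene and of the whole list, and black lines are medians. The exclusive peaks have the lowest median in each list (0.70 and 0.99).

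A peak listed for a chemosensory gene alone need not lie on that gene. Among the 28 exclusive control peaks, 13 overlapped a chemosensory span and no other annotated gene, 4 overlapped a chemosensory span together with another gene, 4 lay over another gene, and 7 lay over no gene. The 34 exclusive ecd1 peaks divided into 17, 7, 2 and 8. Over the whole lists, 15.3% of control and 14% of ecd1 peaks lay over no gene. The control peak of *Ir21a* (2L:20258-21643, height 0.80), a gene of cool sensing, lay over the tumour suppressor gene *l(2)gl*. That of *Gr2a* (X:1450857-1451072, 0.85) lay over *futsch*, a gene of a microtubule-associated protein, and those of *Ir60a* and *Ir85a* lay over *nord* and over *Pif1A* with *Pif1B*. Another control peak, of 0.74, overlapped the *Gr2a* span without being listed for *Gr2a*. The exclusive peaks over a chemosensory span and no other gene had median heights of 0.64 in control and 0.96 in ecd1. The exclusive peaks over no gene had higher medians, of 0.97 and 1.14. Their median width was 2943 bp in control and 878 bp in ecd1. Over all peaks without an annotated gene the median heights were 0.86 and 1.09.

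The 2 tallest exclusive peaks of each list lay at 2 small clusters on chromosome arm 3R. Beside *Obp83cd* (3R:6108134-6109733) a peak 123 bp outside the gene had a height of 1.78 in control (3R:6105069-6108011), and one 532 bp outside had 1.92 in ecd1 (3R:6105184-6107602); neither overlapped any gene. On the other side of the cluster a peak over *Obp83g* had 1.19 in control (3R:6111072-6114520) and 1.79 in ecd1 (3R:6111200-6114520). The control table assigned this peak to *Obp83ef* and gave *Obp83g* a farther one of 0.65, while the ecd1 table assigned it to both genes. The authors' deposited tables list no differing region for these 3 *Obp* genes. *Obp83a* and *Obp83b*, abundant antennal binding proteins encoded elsewhere on the arm, were 23903 bp or more from the nearest peak in either list.

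The *Gr93* cluster had a similar arrangement. A gene-free stretch between *Gr93a* (3R:21832503-21834013), which is needed for the response to caffeine, and *Gr93b* (3R:21842521-21843765) held a peak of height 1.42 in control (3R:21834923-21840729) and 1.93 in ecd1 (3R:21834536-21840729). Inside it, a region (3R:21837828-21839670) has a difference height of 1.20 toward ecd1 in the authors' deposited table; it is listed for both genes and is the largest difference height of the 72 genes. The control peak listed for *Gr93a* (height 1.46) was another one, 9349 bp wide, with one end inside *Gr93a* and the other beyond *lncRNA:CR45632*. In the ecd1 list that stretch held 2 peaks, of 2.17 and 1.20, neither of which reached *Gr93a*. Across *Gr93b* and *Gr93c* lay a low peak of 0.47 in control (3R:21842971-21844252) and 0.89 in ecd1 (3R:21843467-21844605). At this peak the authors' deposited tables give a region of 0.39 toward control listed for *Gr93b* and one of 0.81 toward ecd1 listed for *Gr93c*.

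**Figure D3:**
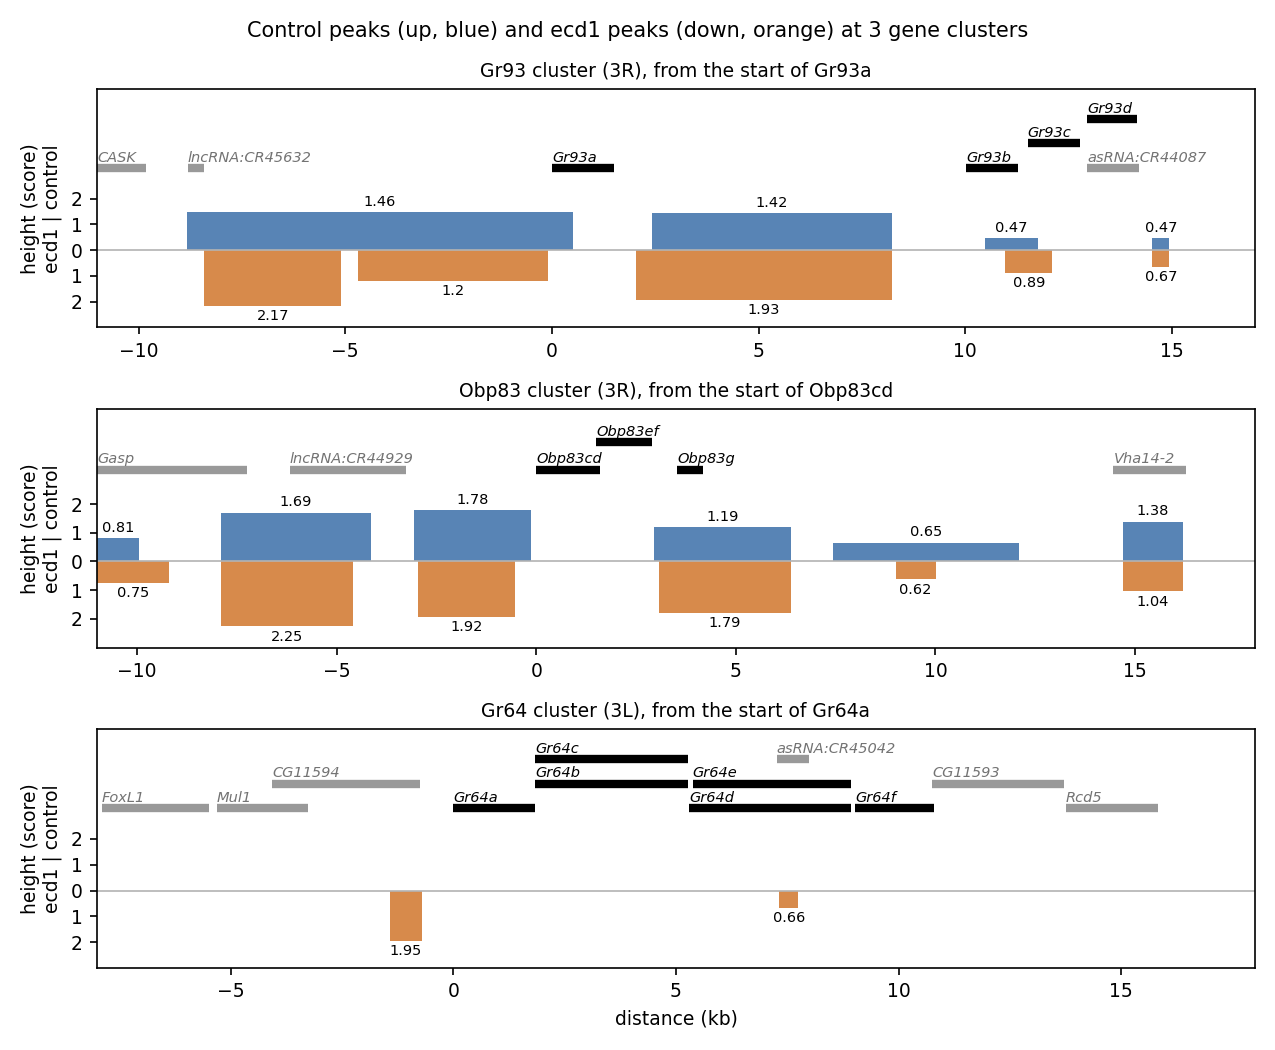
Control peaks (blue, upward) and ecd1 peaks (orange, downward) at 3 clusters, with the authors' height as bar height and label, and distance in kb from the start of the first chemosensory gene on the x axis; chemosensory genes are black and other genes grey. The *Gr93* peaks of 1.42 and 1.93 and the *Obp83cd* peaks of 1.78 and 1.92 lie outside the genes, those of 1.19 and 1.79 lie over *Obp83g*, and the *Gr64* cluster has peaks in the ecd1 list alone.

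Gustatory receptor genes had a listed peak in ecd1 in 17 cases and in control in 11, all of which were among the 17. Median heights were 1.10 in control and 1.41 in ecd1. The tallest ecd1 peak was at *Gr63a*, which encodes a subunit of the carbon dioxide receptor, with 2.06 against 1.10 in control. That peak (3L:3891864-3893501) had the same ends in both lists, lay 1498 bp from *Gr63a* and was also listed for *Fie*, *CR45422* and *snRNA:U11*. *Gr21a*, the partner of *Gr63a*, was 32344 bp from the nearest peak in both lists. Of 9 sugar receptor genes, 2 had a listed peak, both in ecd1 discs. A peak in either genotype was listed for 28.3% of the 60 *Gr* genes and 55.2% of all annotated genes. *Gr64a* and *Gr64b* were listed with *CG11594* and *Mul1* for a peak of 1.95 over *CG11594*, 711 bp from *Gr64a* (3L:4025350-4026058). A second ecd1 peak, of 0.66, lay over *Gr64d* and *Gr64e* and is listed for neither. *Gr64c*, *Gr64f*, the trehalose receptor gene *Gr5a*, the fructose receptor gene *Gr43a* and *Gr61a* had no listed peak.

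Bitter receptor genes were listed in either genotype in 3 of 8 cases, *Gr93a* among them, beside 28.3% of *Gr* genes and 55.2% of all annotated genes. *Gr39a*, which gives rise to several receptor variants, had a control peak of 0.64 listed for it alone (2L:21294907-21296926). The ecd1 peak of 1.46 at this place was also listed for *Mondo*, a sugar-responsive transcription factor gene, which overlaps *Gr39a*. *Gr8a*, needed for the response to canavanine, had a peak of 0.71 inside the gene in ecd1 (X:9227236-9228587) and was 15119 bp from the nearest control peak. The bitter co-receptor genes *Gr66a*, *Gr33a* and *Gr32a*, like *Gr89a* and *Gr47a*, had none listed. *Gr39b* had 1.39 in control and 1.32 in ecd1 for a peak that also overlapped *dtr*. *Gr28b*, which takes part in warmth and light sensing, had a low ecd1 peak of 0.40 inside the gene (2L:7456929-7457524). A peak of 1.10 in control and 1.61 in ecd1 lay over one end of *Gr10a* (X:11413467-11417422). *Or10a* is annotated with the same span and is listed for no peak, so which of such neighbours is counted depends on the authors' assignment; 6 annotated chemosensory genes have a span identical to another one.

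Of the 59 odorant receptor genes, 11 (18.6%) had a listed peak in control and 14 (23.7%) in ecd1. The shares over all annotated genes were 46.5% and 49.1%. Listed in both genotypes were 9 of the *Or* genes, and median heights were 0.97 in control and 0.94 in ecd1. *Or30a* had the tallest control peak of those listed for *Or* genes only, with 1.15 (2L:9111833-9115424); the nearest ecd1 peak was 11337 bp from the gene. *Or45a*, a larval receptor gene, had an ecd1 peak of 0.84 inside its span (2R:9346086-9347176), where *CG13954* and *CG13739* are annotated too. *Or65a* and *Or67a* each had an exclusive peak over the gene in both lists, of 0.65 and 1.21 for *Or65a* and of 0.60 and 0.96 for *Or67a*. *Or47b*, a pheromone receptor gene, had a control peak of 0.72 inside the gene (2R:11320200-11320978), whereas its ecd1 peak of 0.49 lay 3896 bp away and was shared with *nompA* and *CG43114*. At *Or47a* the height was 1.04 in control and 0.91 in ecd1, shared with the cuticle protein gene *Cpr47Ea*. *Or83a* was listed for a peak 3412 bp away, of 1.29 in control and 1.30 in ecd1, together with the chitin synthase gene *kkv* and others; a further ecd1 peak of 0.80 lay over the gene. *Or42b*, *Or22a* and the pheromone receptor gene *Or67d*, expressed in well-known antennal neurons, were 7324 bp or more from the nearest peak.

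Of the 66 ionotropic receptor genes, 18 (27.3%) were listed in control and 20 (30.3%) in ecd1, beside 46.5% and 49.1% of all annotated genes. Listed in both genotypes were 14 of the *Ir* genes, and median heights were 0.68 in control and 1.03 in ecd1. Among the 3 co-receptor genes, *Ir76b* had an exclusive peak inside the gene of 0.90 in control (3L:20109717-20110135) and 1.26 in ecd1 (3L:20109717-20110684). *Ir25a* and *Ir8a* were 4139 bp or more from the nearest peak. Of 4 genes of temperature and humidity sensing, *Ir93a* had 0.95 and 1.06 for a peak shared with *mir-1011*, *Ir21a* was in the control table alone, *Ir40a* had 0.44 in ecd1 alone (2L:22195913-22196473), and *Ir68a* was in neither. *Ir67c* had the tallest exclusive peaks of the family, outside the gene, with 1.14 in control (3L:10434179-10435535) and 1.5 in ecd1 (3L:10434631-10435053). Its neighbour *Ir67b* had a control peak of 0.58 inside the gene and none listed in ecd1, and *Ir7g* had 0.41 inside the gene in control alone. *Ir41a*, annotated over 104437 bp, had an ecd1 peak of 1.30 inside it (2R:4939857-4940708), and the nearest control peak was 29811 bp from the gene. *Ir94e*, with the most peaks on its span in the family, had 0.49 in control and 0.64 in ecd1 for a peak it shared with *Ir94d* and, in control, also with *CG17380*. Inside *Ir52d* lay the sole peak with the same ends in both lists that both tables list for chemosensory genes only (2R:15507342-15508139), of 0.60 in control and 0.98 in ecd1.

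Of the 51 odorant-binding protein genes, 14 (27.5%) were listed in control and 13 (25.5%) in ecd1, with 12 in both. The shares over all annotated genes were 46.5% and 49.1%. Heights of the *Obp* genes ran from 0.38 to 2.00 in control and from 0.49 to 2.02 in ecd1, with medians of 0.77 and 1.06. *Obp73a* had 2.00 and 1.92 for a peak with the same ends in both lists that was also listed for *Nc73EF*, an enzyme gene of the citric acid cycle, and *Cpr73D*. *Obp56a* had 1.39 and 2.02 for a peak shared with *CR44506*. *Obp56i* had 1.21 in control, shared with *CR44460*, and 1.80 in ecd1 for a peak listed for it alone (2R:19864656-19868256). *Obp28a*, an abundant binding protein gene, had 1.30 and 1.04 for a peak that reached *Ziz*. *Obp99a* had 0.38 and 0.68, shared with *ppk30*, and *Obp8a* had 0.49 in ecd1 alone.

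**Figure D4:**
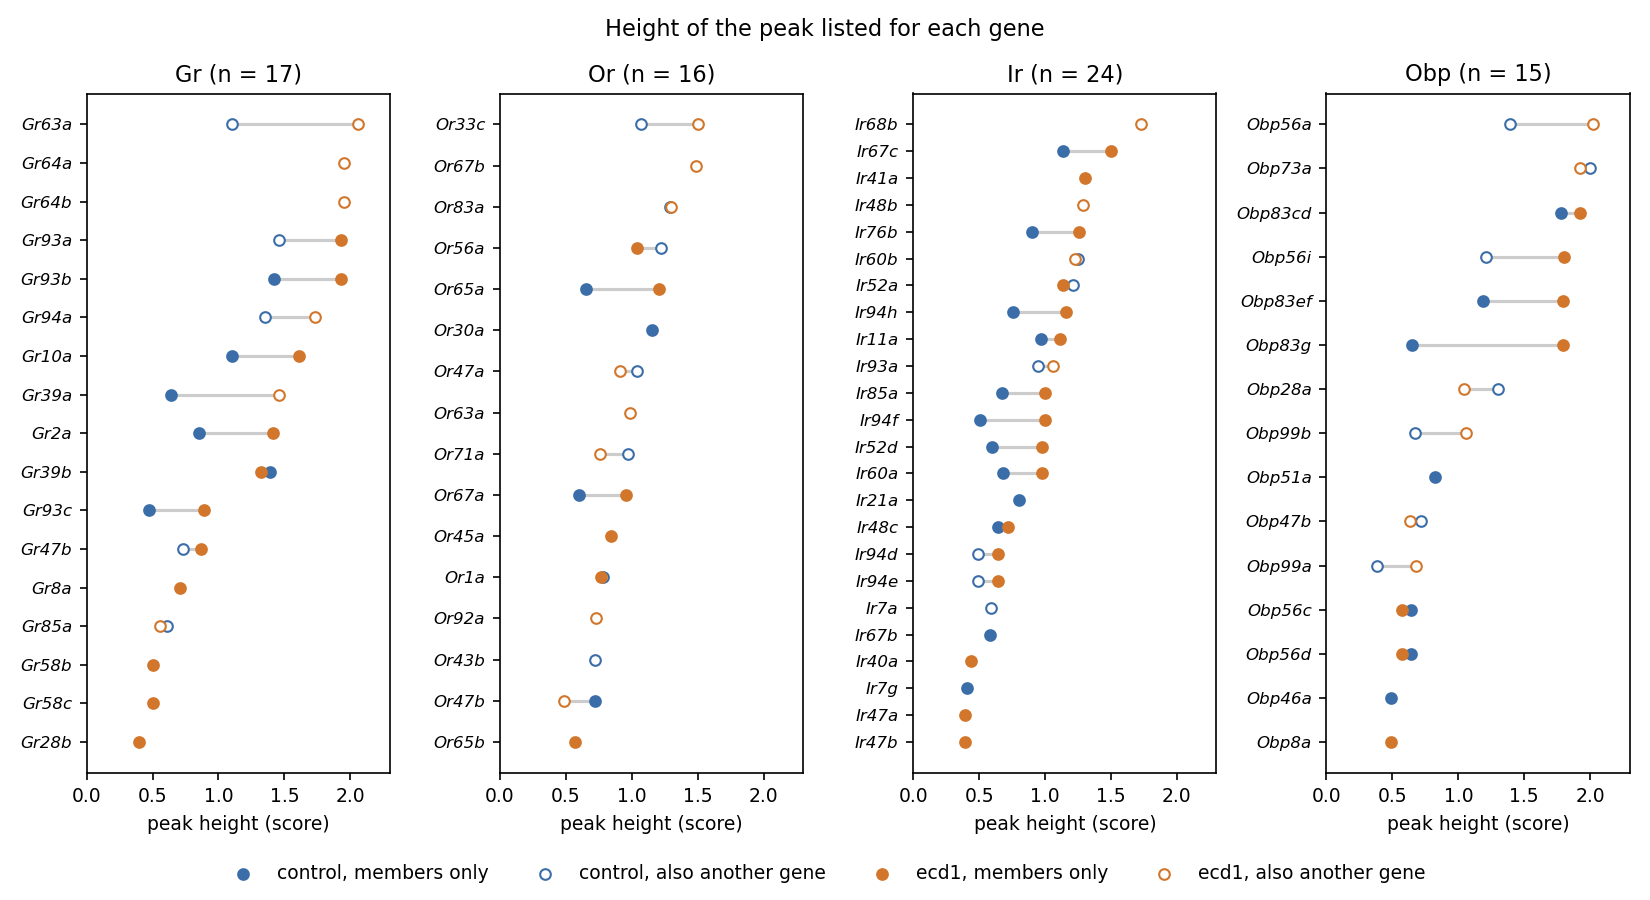
Height of the peak listed for each of the 72 genes (x axis, authors' score) by family, in control (blue) and ecd1 (orange); filled points are peaks listed for chemosensory genes only, open points are peaks also listed for another gene, and grey lines join both lists. The 3 greatest heights of the *Gr* family, 2.06 and 1.95 (at 2 genes), belong to peaks shared with other genes.

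Both genotypes had a listed peak for 46 of the 72 genes. This was 85.2% of those listed in control, beside 87.1% over all genes, and 71.9% of those listed in ecd1, beside 82.4%. For protein-coding genes with spans of at most 3000 bp the shares were 84.4% and 77.9%. A listed peak in control alone was found for 8 genes and in ecd1 alone for 18, among them 6 *Gr*, 5 *Or*, 6 *Ir* and 1 *Obp* gene. For 17 of these 18, no control peak overlapped the ecd1 peak; the exception was *Ir48b*, with a control peak of 0.86 there. For 6 of the 8 control genes no ecd1 peak overlapped, and the exceptions were *Obp51a*, whose peak also overlapped *hbs*, with an ecd1 peak of 1.35, and *Or43b*, beside *Cul1*, with 0.82. Genes listed in 1 genotype had low peaks, with a median of 0.66 in control and 0.72 in ecd1, beside 0.67 and 0.81 for all such genes.

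Where both lists had a peak, the ecd1 one was mostly the taller, as over all genes. The listed peaks of 39 of the 46 genes overlapped each other. The ecd1 height was greater for 29 of them (74.4%), beside 82.5% of 5795 such genes over the whole tables. The median difference between the ecd1 and the control height was 0.30 (quartiles -0.01 and 0.46), beside 0.29 (0.08 and 0.53). The greatest excess of ecd1 was 0.96 at *Gr63a* and 0.82 at *Gr39a*, both at peaks shared with other genes in ecd1. The control peak was taller at 10 genes, by at most 0.26, at *Obp28a*.

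**Figure D5:**
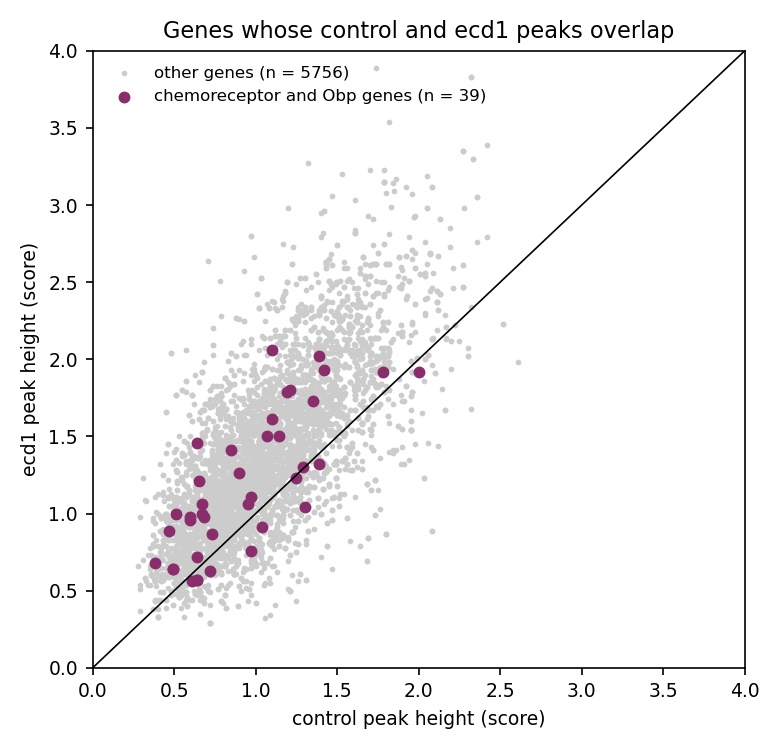
Height of the listed control peak (x axis) against that of the listed ecd1 peak (y axis), both in the authors' score, for 39 chemosensory genes (purple) and other genes (grey) whose peaks in both lists overlap; the line marks equal heights. The chemosensory genes lie within the cloud of other genes, 29 of them above the line.

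The authors' own comparison of the genotypes gave regions in both directions. The authors' deposited table of regions higher in ecd1 lists 36 of the 72 genes (50%), beside 57.1% of the 9826 genes, and that of regions higher in control lists 10 (13.9%), beside 22.1%. Short genes had fewer regions in general: of the protein-coding genes with spans of at most 3000 bp and a listed peak, 50.4% and 17.1% were in the authors' deposited tables. A difference height of at least 1 was reached on the ecd1 side by 4 genes, beside 12.4% of all genes, and on the control side by none, beside 1.11%. After *Gr93a* and *Gr93b*, the authors' deposited table gives 1.03 for *Ir48b*, from a region 848 bp outside the gene (2R:11703297-11704500), and 1.02 for *Or56a*, the geosmin receptor gene, from a region 4629 bp away (2R:19775862-19776134). Then follow 0.97 inside *Ir41a* and 0.96 at the *Gr63a* peak in the authors' deposited table. *Ir76b* had 0.59 in the authors' deposited table, over the same interval as its ecd1 peak.

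On the control side the authors' deposited table gives the largest heights as 0.85 for *Obp28a*, 1153 bp outside the gene and shared with *Ziz* (2L:7494885-7495638), and 0.71 for *Obp51a*, shared with *hbs* and *CR45256* (2R:15024194-15025948). It continues, in the authors' deposited table, with 0.65 for *Ir85a* at 4788 bp from the gene and 0.57 inside *Ir41a* (2R:4968182-4968978). *Ir41a* is thus 1 of 6 genes of the 72 (8.33%) with regions in both directions in the authors' deposited tables, beside 12.3% of the 9826 genes. By family, regions higher in ecd1 were listed for 10 of 17 *Gr*, 9 of 16 *Or*, 13 of 24 *Ir* and 4 of 15 *Obp* genes.

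For the 164 chemosensory genes without a listed peak, the median distance to the nearest peak was 8495.5 bp in control and 7476.5 bp in ecd1, and it exceeded 10000 bp for 71 and 65 of them, with the greatest distance 107527 bp, in control. These genes were set apart by having no listed peak, and the distances of other annotated genes without one were not measured. Some of the 164 were overlapped by a peak that is not listed for them, 3 in control and 9 in ecd1. Of the 164, 25% overlapped an annotated gene of another kind, beside 30.6% of the 72, with median spans of 1412.5 and 1688.5 bp. By chromosome arm, a peak was listed for 24 of 81 genes on 2R, 14 of 37 on 3L, 18 of 54 on 3R, 8 of 33 on 2L and 8 of 31 on X. The share over all annotated genes of each arm was not counted, so these counts show no difference between arms particular to the families.

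Differing regions were also listed for 8 of these 164 genes in the authors' deposited tables. They were 4 in each direction (2.44%), beside 5.16% toward ecd1 and 3.51% toward control among all 7931 annotated genes without a listed peak. The authors' deposited table gives 1.54 higher in ecd1 for *Gr97a*, from a region across its end that is shared with *CG5521* (3R:26966189-26967903), although the nearest peak was 9287 bp from the gene in control and 15900 bp in ecd1. The other ecd1 values in the authors' deposited table were 0.90 for *Or45b*, 0.44 for *Gr92a* and 0.35 for *Or22a*. Toward control, the authors' deposited table lists regions at *Ir92a* (0.48), *Ir25a* (0.46), *Or85d* (0.38) and *Ir10a* (0.29).

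The list of 21 chemosensory genes outside the symbol rule includes genes used in many tissues, such as those of G protein subunits. A control peak was listed for 14 of the 21, beside 46.5% of all annotated genes, and an ecd1 peak for 15, beside 49.1%. In the authors' deposited tables, 7 have regions higher in ecd1, beside 33.8% of all annotated genes, and 6 have regions higher in control, beside 13.8%. *lush*, a binding protein gene needed for pheromone detection, had 1.10 and 1.25 for peaks listed for 2 genes each. *Snmp2* had 1.79 and 1.98 for peaks listed for it alone. *ato*, the proneural gene of many *Ir* neurons, had 0.43 in control and 1.25 in ecd1, for peaks listed for 2 genes each. The control peak lay outside the *ato* span, which no control peak overlapped and 2 ecd1 peaks did. *Orco* and *amos*, the proneural gene of *Or* neurons, had no listed peak.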

How the data were processed

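The 8 libraries were grouped by title; 1 of them, ecd1 with Dam alone by title and genotype, is described as Dam-RNase H1. Fragments amplified by PCR through their methylated ends were read from both sides, per the labels' protocols. The build is BDGP6 per the submitters' processing notes; the sources used here do not name the aligner or peak caller, or say how replicates and Dam-only libraries were combined. The authors deposited 2 peak lists, 2 tables with 1 peak per gene and 2 tables of differing regions, each with a height (a score without a stated scale) and an FDR (a q-value). At the 138 regions higher in ecd1 that have the same ends in both peak lists, the deposited height equals the difference of the peak heights within 0.01.

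The peak lists name no genes, so genes of a peak are those with the same peak in the gene table. Identifiers were matched to the RefSeq gene table of Release 6 plus ISO1 MT (10423 of 10500, and each of the 72 genes), which gave spans. Overlap was counted from 1 bp on with pandas 2.3.3 and tested on simulated intervals. No count or limma test could be made, since no value per library is in the files used.

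Members and lists were chosen with earlier results of these data known. Named are the genes of the 6 tallest exclusive peaks of each genotype, the 4 largest differences in each direction, exclusive peaks inside a gene in 1 genotype (up to 4 each), the gene of each family with the most peaks on its span (ties by symbol), and a set list of well-known receptors; others named illustrate a count and were chosen after their values were seen.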

Additional observations from a re-analysis of the deposited data

How the results depend on the processing

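Each genotype has 1 list, so neither depth nor replicate spread can be given. The number of chemosensory genes with a peak, their sharing between genotypes, the share of all genes with a listed peak, and the number of differing regions that overlap a peak of their genotype stayed within 1.5 times the reported value under the alternatives run. The exclusive peaks did not. From 28 in control and 34 in ecd1 they fell to 16 and 21 with a chemosensory gene and no other gene annotated within 1000 bp, to 16 and 21 with an FDR under 0.001, and to 7 and 17 with a height of at least 1. The median height went from 0.79 and 1.04 per gene to 1.23 and 1.73 among the few peaks with the same ends in both lists. Of the genes with a region higher in ecd1 (36) or control (10), 4 and 0 had a height of at least 1, and 23 and 6 had a region listed for chemosensory genes only. These alternatives keep fewer peaks or regions by construction. Assigning genes from the full peak lists was not run, since those lists name no genes. No paired analysis was possible because no column holds the value of a single library, and for that reason leaving out a replicate was not run either.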

Other observations

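Where both peak lists hold a region with the same ends, difference heights equal the subtraction of peak heights. If that holds elsewhere, the score that control discs had under an ecd1 peak without a control peak can be read back where the authors' deposited table lists the same interval. This reading was added after the data were seen. It was possible at 545 ecd1 peaks, 10 of them listed for chemosensory genes in the authors' deposited table. Over the 545 the remaining control score had a median of 0.15 (quartiles 0.05 and 0.35), and over the 10 it ran from 0 to 1.25. In the interval beside *Gr64a* and *Gr64b* it was 1.25, from an ecd1 height of 1.95 and a difference of 0.70 in the authors' deposited table, and this was the largest of all 545 values. It was 0.78 at *Ir68b*, 0.76 at *Or67b*, 0.33 at *Ir41a*, 0.02 at *Or56a* and 0 at *Ir40a*. The value beside *Gr64a* exceeded the median height of the control list, 0.88, yet no control peak is listed there. Why no peak was called was not tested.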
